A study of Mus musculus with 12 samples.

Results

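Constant distal elements were the places away from annotated promoters where the start of transcription was called in every substage of meiotic prophase I that was profiled. They were selected on the calls themselves: the deposited dREG peaks of leptonema/zygonema, pachynema and diplonema were joined where they overlapped or touched, and an autosomal element was kept when it held peaks of all 3 substages and its edge lay 1000 bp or more from every transcription start site (TSS) of the GENCODE M21 annotation. Of 65172 joined elements in the series, 63116 lay on chromosomes 1 to 19, and 7305 of these met the rule. The presence of a call in each substage is therefore a property of the selection and not a result.

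The cells were spermatocytes of adult wild-type (WT) mice, enriched by STAPUT, a separation of testis cells by their sedimentation at unit gravity. Length-extension chromatin run-on sequencing (leChRO-seq) maps polymerases that are engaged on chromatin and can still extend their RNA. Each of the 3 substage fractions had 4 libraries, with no treatment and no mutant, and these were merged within a substage before peaks were called. The fractions were enriched and not pure, and with 1 list per substage there was no spread between replicates, so no substage was tested against another and all intervals below cover the counting of elements only.

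In background, active enhancers are transcribed in both directions from a nucleosome-poor centre, and the short-lived RNAs that result are seen best by run-on methods. dREG is a trained classifier that recognises this pattern of divergent initiation in run-on reads, at promoters and enhancers alike. In the male germ line, A-MYB (the product of Mybl1) is a master activator of pachynema, RFX2 drives genes of cilia and flagella, and CREM binds cyclic AMP response elements in spermatids. RFX proteins bind the X-box, a pair of inverted copies of GTTGCC with a short gap between them.

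The sequences of the constant distal elements with the highest ranks show what lies at such centres. Each peak was ranked by its dREG score within its own list, and the rank is given as a percentile. The windows below run 100 bp to either side of the deposited centre of the best pachynema peak, were read from RefSeq GRCm38.p6 (the same build as mm10) on the plus strand, and carry capitals where a word searched for MYB (GGCNGTT), RFX (GTTGCCA or GTTGCTA) or CREB (TGACGTCA) was found on either strand. Untranslated exon sequence of protein-coding transcripts was trimmed from them. The first 3 are the intergenic, the intronic and the exonic element whose lowest percentile over the lists was highest, and the other two are the highest elements with a MYB word and with CREB and RFX words.
chr16:58082991-58083191: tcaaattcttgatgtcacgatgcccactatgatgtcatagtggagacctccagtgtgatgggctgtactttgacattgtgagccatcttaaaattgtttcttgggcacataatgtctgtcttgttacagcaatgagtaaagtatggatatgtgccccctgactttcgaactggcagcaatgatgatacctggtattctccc
chr1:165366491-165366691: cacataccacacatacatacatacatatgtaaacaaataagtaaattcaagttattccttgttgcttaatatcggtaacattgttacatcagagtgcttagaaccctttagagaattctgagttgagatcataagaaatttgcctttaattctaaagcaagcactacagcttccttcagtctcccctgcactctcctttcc
chr2:38369011-38369126: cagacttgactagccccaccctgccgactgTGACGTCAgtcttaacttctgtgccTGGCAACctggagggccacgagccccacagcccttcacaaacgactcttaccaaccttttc
chr2:170470601-170470801: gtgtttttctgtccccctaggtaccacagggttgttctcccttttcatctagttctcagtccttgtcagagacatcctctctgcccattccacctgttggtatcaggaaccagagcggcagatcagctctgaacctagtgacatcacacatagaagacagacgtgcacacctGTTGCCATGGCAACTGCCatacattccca
chr11:87998299-87998471: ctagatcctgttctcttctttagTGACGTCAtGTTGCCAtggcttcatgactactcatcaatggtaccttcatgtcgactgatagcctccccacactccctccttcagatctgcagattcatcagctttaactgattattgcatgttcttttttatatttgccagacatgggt

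In the element near Pfdn4 on chromosome 2, an X-box with 2 bases between its copies and a MYB word ran into each other in a single stretch of capitals. In the element near Dynll2 on chromosome 11, the CREB word and the RFX word stood 1 base apart. The intergenic element near Dcbld2 and the intronic element in Dcaf6 ranked highest of their classes and held none of these words.

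The element near Dcbld2 spanned chr16:58082261-58083540, 324903 bp from the nearest protein-coding TSS. Over leptonema/zygonema, pachynema and diplonema its best peaks had dREG scores of 1.457, 1.417 and 1.355, and none was below the percentile of 99.9. The Dcaf6 element lay within an intron at chr1:165366311-165366980, with scores of 1.517, 1.557 and 1.314 in the same order and a lowest percentile of 99.8. Dcaf6 encodes a substrate receptor of a ubiquitin ligase, and the element lay 14313 bp from the nearest TSS of the gene. The intronic element next in rank lay in Syndig1, which encodes a synapse protein, with a lowest percentile of 99.7 over the lists. Whether the gene was transcribed from this element was not tested.

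The exonic element of highest rank covered the last coding exon of Lhx2, a LIM-homeodomain transcription factor, at chr2:38368581-38369380, and held 1 peak of each substage with scores of 1.385, 1.429 and 1.302. Its centre lay in coding sequence, and its edge lay 14779 bp from the nearest Lhx2 TSS, and a RefSeq TSS of the long noncoding RNA Gm13584 lay inside the element. The element near Dynll2, which encodes a dynein light chain, spanned chr11:87997591-87998770 and was 10058 bp from the GENCODE TSS. RefSeq places the start of a Dynll2 mRNA inside it. Among the other exonic elements of highest rank, 1 lay in Nkain3, with a lowest percentile of 97.8, and 1 in Pknox2, a homeodomain factor, with a MYB word, a RefSeq TSS of Pknox2 inside the element and a lowest percentile of 96.9. The third intergenic element of highest rank lay 10140 bp from Frem3, with a lowest percentile of 99.5. The distance to a TSS thus depended on the annotation for single elements, as it did for the whole set below.

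The rule had a limit at 1000 bp, and the elements next to it on either side are given as a description. The 3 elements just inside lay 1002 bp from Cldnd2, 1003 bp from Map3k10 and 1005 bp from Epc2, with pachynema scores of 0.729, 0.806 and 0.664. The 3 just outside lay 996 bp from Mrps5, 996 bp from Gm16599 and 992 bp from Gm3531, with pachynema scores of 0.986, 0.483 and 1.187.

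Of the 37706 distal elements on the autosomes, 19.4% were called in all 3 substages, against 49.4% of the 25410 elements under 1000 bp from a TSS, called promoter elements here. The distal groups called in leptonema/zygonema alone, with 11639 elements, and in leptonema/zygonema and pachynema but not in diplonema, with 9445, were larger than the constant group, and 6423 were called in pachynema alone. The distal elements of leptonema/zygonema and pachynema only are used below for comparison, since they share both early calls with the constant distal elements. The constant distal elements took up 15.0% of the leptonema/zygonema list (10674 of 71107 peaks), 16.2% of the pachynema list (11105 of 68352) and 24.9% of the diplonema list (9615 of 38603). The diplonema list was the shortest, so a call there was the narrowest of the 3 gates.

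Constant distal elements were mostly intergenic and lay at a median of 14196 bp from a TSS. The centre lay between genes in 55.2% (95% Wilson interval 54.0 to 56.3), in an intron in 40.0% (38.9 to 41.2) and in an exon in 4.78% (4.31 to 5.29). In the distal elements not called in diplonema, the intergenic share was 52.8% (51.8 to 53.8). At like pachynema scores the intervals overlapped, with 55.9% (53.6 to 58.2) and 57.4% (54.1 to 60.7) at scores of 0.8 to 1.0. The interval of that median was 13655 to 14711 bp, with quartiles of 5589 and 34205 bp, and the median was 14220 bp (13664 to 14689) in the elements not called in diplonema. Distances of 10 to 50 kb held 43.9% of constant distal elements, and 5.97% lay more than 100 kb from any TSS, up to 479647 bp. To a protein-coding TSS the median distance was 33523 bp.

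**Figure D1:**
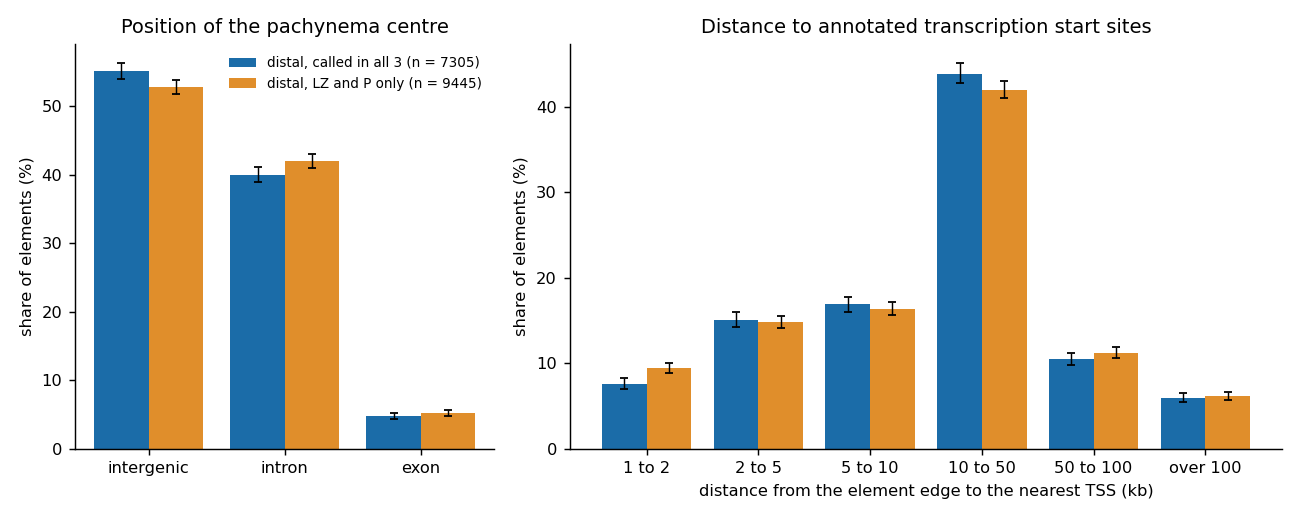
Left, share of elements (%) with the pachynema centre between genes, in an intron or in an exon; right, share (%) by distance from the element edge to the nearest TSS (kb), for 7305 constant distal elements (blue) and 9445 distal elements called in leptonema/zygonema (LZ) and pachynema (P) only (orange), with 95% Wilson intervals. In both sets the intergenic bar is the highest, and 43.9% of constant distal elements lie 10 to 50 kb from a TSS.

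A RefSeq TSS lay within 1000 bp of 1048 constant distal elements (14.3%, 13.6 to 15.2), and inside 10.6% of them, although no GENCODE TSS did. The share was 8.16% (7.63 to 8.73) in distal elements not called in diplonema. Windows laid every 10000 bp along the autosomes, outside all elements and at the same minimum distance from GENCODE, were within 1000 bp of a RefSeq TSS in 1.28% (1.24 to 1.33). The nearest RefSeq start belonged to a long noncoding RNA in 74.6% of the 1048 and to an mRNA in 23.0%. Their median scores were 1.02, 0.957 and 0.598 in the order of the substages, against 1.03, 0.919 and 0.543 for the other constant distal elements. A tRNA gene, which is read by RNA polymerase III, overlapped 30 constant distal elements (0.411%, 0.288 to 0.586), 0.191% of distal elements not called in diplonema and 0.279% of promoter elements. An example was n-TEttc6 on chromosome 14 with scores of 1.26, 0.931 and 0.755. Among the 374 elements in the top 10% of all 3 lists, 79 (21.1%, 17.3 to 25.5) had a RefSeq TSS within 1000 bp. A RefSeq enhancer record overlapped 35 constant distal elements (0.479%, 0.345 to 0.666), 0.296% (0.205 to 0.428) of distal elements not called in diplonema and 0.144% of promoter elements. The intervals of these distal sets overlapped, as they did for tRNA genes (0.121 to 0.301 in elements not called in diplonema). The median element width was 870 bp in constant distal elements and 590 bp in distal elements not called in diplonema. It was 1230 bp in promoter elements called in all 3 substages. The RefSeq shares were not corrected for width.

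Constant distal elements ranked lower in the diplonema list than in the early lists, and the size of this difference depended on the length of the lists. The median dREG score was 1.03 in leptonema/zygonema (quartiles 0.710 and 1.21), 0.926 in pachynema (0.699 and 1.12) and 0.549 in diplonema (0.396 and 0.776). Scores are not scaled between lists. The median percentile within a list was 81.8, 78.8 and 52.1, but the diplonema list was much shorter. With each list cut to its 38603 highest-scoring peaks and the peaks joined anew, 5882 elements met the rule. Their median percentiles, which were computed after the data had been seen, were 74.6 (73.7 to 75.4), 69.6 (68.8 to 70.3) and 57.1 (56.0 to 58.0). The best peak was in the top 10% of its list in 31.0%, 24.1% and 8.43% of elements, and 374 elements (5.12%) were in the top 10% of all 3. Diplonema gave the lowest of the 3 percentiles in 74.5% of elements, leptonema/zygonema in 17.5% and pachynema in 8.05%, and in the lists of equal length these shares were 57.9%, 19.8% and 22.2%. These values come from the calls that chose the elements, and they are given as a description only.

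Peaks also narrowed in diplonema. In the 3487 elements with exactly 1 peak of each substage, the median width was 600 bp in leptonema/zygonema, 570 bp in pachynema and 440 bp in diplonema, and the diplonema peak was narrower than the pachynema peak in 80.0%. Over all constant distal elements the median width of the best peak was 620, 590 and 480 bp, and over all promoter elements called in all 3 substages it was 600, 630 and 560 bp. These promoter elements had median scores of 1.06, 1.05 and 0.776. From pachynema to diplonema the median percentile went from 85.6 to 74.1 at these promoter elements and from 78.8 to 52.1 at the constant distal elements. In the lists of equal length it went from 77.7 (77.3 to 78.2) to 77.5 (76.9 to 78.0) at 11142 constant promoter elements, so the step at promoters was gone, and from 69.6 to 57.1 at the constant distal elements. The lists do not give the depth of the merged libraries, and its part in these differences was not tested.

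Among distal elements called in both early lists, a higher early score went with a call in diplonema. Of these 16750 elements, 7305 (43.6%) were called in diplonema and so were the constant ones. In the lowest of 10 equal groups by pachynema score the share was 8.06% (6.85 to 9.46), and in the highest, with scores of 1.14 or more, it was 96.1% (1609 of 1675). By leptonema/zygonema score the share was 23.8% (21.8 to 25.9) in the lowest group and 88.8% (87.2 to 90.3) in the highest. The calls are those of the selection, so these shares are a description.

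**Figure D2:**
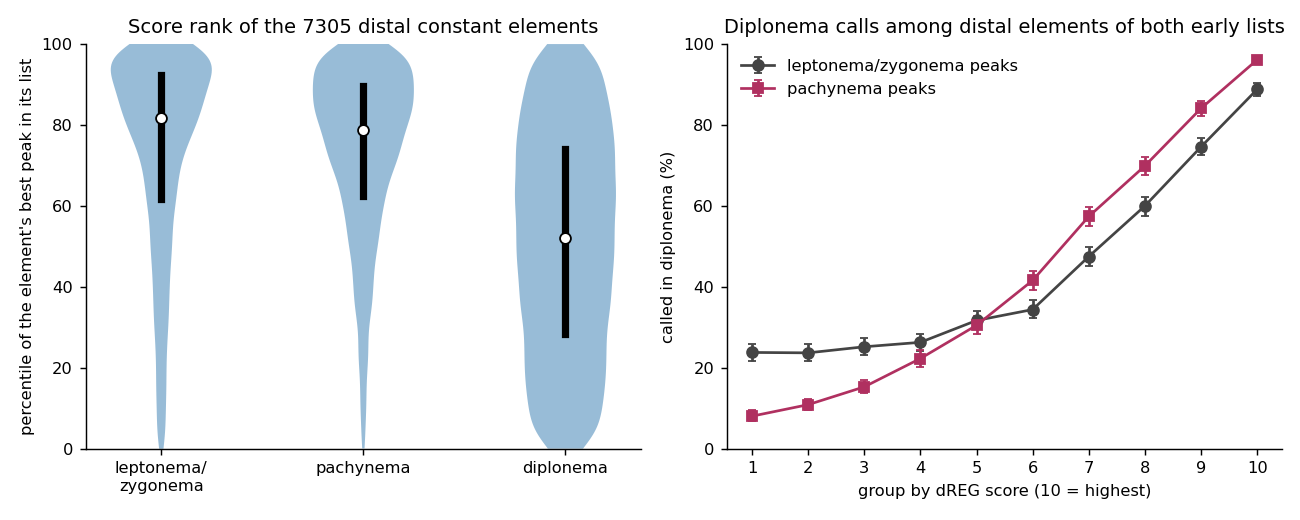
Left, percentile of the best peak of each constant distal element within the list of its substage (violins, with the median as a white point and the quartiles as a bar); right, share (%) called in diplonema among the 16750 distal elements called in leptonema/zygonema and pachynema, in 10 equal groups of either dREG score, with 95% Wilson intervals. The median percentile is 81.8, 78.8 and 52.1 on the left, in lists of unequal length, and the group with the highest pachynema scores reaches 96.1% on the right.

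In the 47.7% of elements with exactly 1 peak of each substage, the peak centres lay close together. Such peaks formed 1 element only because they overlapped or touched, so the selection itself limited these distances. In the 3487 elements with 1 peak of each substage, the median distance between the leptonema/zygonema and pachynema centres was 30.0 bp (interval of the median 30.0 to 40.0), on coordinates that step by 10 bp. Between pachynema and diplonema it was 50.0 bp, and the 2 centres were over 200 bp apart in 5.48% of elements. Across the 7305 elements, Spearman's rho of the scores was 0.737 between leptonema/zygonema and pachynema, 0.597 between pachynema and diplonema and 0.359 between leptonema/zygonema and diplonema. Each rho describes elements that share a library pool and a caller, and the elements are not replicates.

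Single elements changed rank more than most. The largest rise from leptonema/zygonema to pachynema among elements with 1 peak each was at chr18:54263671-54264520, an intergenic site 331427 bp from Csnk1g3, which went from a score of 0.279 to 1.095 and from the 0.887 to the 88.3 percentile, and stayed at 86.1 in diplonema. The next was at chr3:122647511-122648130, 27796 bp from Fnbp1l, with percentiles of 4.36, 88.8 and 45.5. The largest falls over the same step were at chr10:112660191-112660770 203848 bp from Kcnc2 and with a RefSeq TSS of the long noncoding RNA Gm40764 inside it, from 82.6 to 6.09, and in an intron of Sdr9c7, which encodes a dehydrogenase of skin lipid metabolism, from 83.9 to 9.78. From pachynema to diplonema, the site that rose most lay in an intron of Batf, which encodes a leucine-zipper factor of lymphocytes, from a score of 0.397 to 0.976 and to the 87.9 percentile. The largest fall was in an intron of Ssbp2, from 98.2 to 0.0984, and the next 37453 bp from Ccng2, an atypical cyclin, from 97.6 to 0.368. These 7 elements were chosen for their changes and carry no test, and their percentiles refer to lists of unequal length.

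The constant distal elements were poorer in GC and in CpG than promoter elements. The median GC content of the windows was 48.3% (47.8 to 48.3; quartiles 43.8 and 52.2), against 60.7% (60.2 to 61.2) at promoter elements called in all 3 substages, 47.3% (47.3 to 47.8) at distal elements not called in diplonema, and 41.8% in the windows laid along the autosomes. The ratio of observed to expected CpG dinucleotides, which is high in CpG islands, had a median of 0.215 (0.209 to 0.223) in constant distal elements, 0.739 (0.731 to 0.745) at the promoter elements and 0.184 (0.179 to 0.189) at the distal elements not called in diplonema. Still, 826 constant distal elements (11.3%) had a ratio of 0.6 or more, as did 63.4% of promoter elements. Their median scores were 0.788, 0.869 and 0.589 in the order of the substages, against 1.05, 0.933 and 0.545 in the other 6475 elements.

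**Figure D3:**
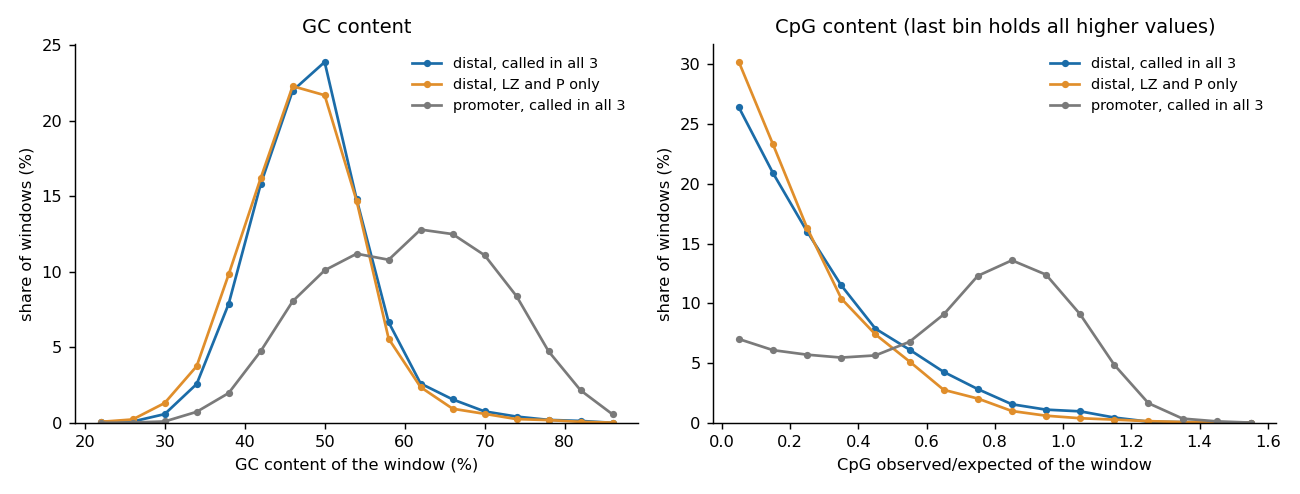
Share of windows of 100 bp to either side of the centre (%) by GC content (%) and by observed/expected CpG, for constant distal elements (blue), distal elements called in leptonema/zygonema (LZ) and pachynema (P) only (orange) and promoter elements called in all 3 substages (grey). Both distal curves lie to the left of the promoter curve, with median GC contents of 48.3%, 47.3% and 60.7%.

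RFX words were more frequent in constant distal elements than the MYB word GGCNGTT or the CREB word, and were placed at the centre. A window held GTTGCCA or GTTGCTA in 16.7% (15.8 to 17.5), against 13.1% (12.4 to 13.8) of distal elements not called in diplonema, 8.79% (8.31 to 9.30) of the promoter elements and 3.55% (3.47 to 3.62) of 234062 windows along the autosomes. In windows 2000 bp to either side of the same elements the share was 3.63%. Per 20 bp bin, 2.56% of elements had an RFX word within 50 bp of the centre and 0.416% beyond 400 bp, a ratio of 6.14, while the ratio was 4.50 at the distal elements not called in diplonema and 3.32 at promoter elements. The X-box form, GTTGCC followed by GGCAAC with 0 to 3 bases between them, was in 64 constant distal elements (0.876%, 0.687 to 1.12), in 0.561% (0.429 to 0.733) of distal elements not called in diplonema, with an overlapping interval, in 0.311% of promoter elements (0.228 to 0.425) and in 0.00812% of windows along the autosomes. The search for this pair was added after the sequences had been seen.

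MYB words of the form GGCNGTT were less frequent than RFX words in these windows and more evenly spread. The shorter MYB core CNGTTG, given below, was in 37.9% of windows. GGCNGTT was in 12.3% of windows (11.6 to 13.1), against 8.19% (7.66 to 8.77) of distal elements not called in diplonema, 10.8% (10.3 to 11.4) of promoter elements and 5.21% (5.12 to 5.30) along the autosomes. The share per 20 bp bin was 1.66% within 50 bp of the centre and 0.642% beyond 400 bp, a ratio of 2.59, while it was 1.48 at the distal elements not called in diplonema. Among elements with pachynema scores of 0.8 to 1.0, so at like scores, MYB words were in 13.7% (12.2 to 15.4) of constant distal elements and in 9.95% (8.14 to 12.1) of the elements not called in diplonema. In that score range, RFX words were in 17.3% (15.7 to 19.2) and 15.7% (13.4 to 18.2), and CREB words, described next, in 1.82% (1.29 to 2.56) and 1.49% (0.871 to 2.53), with intervals that overlapped for both.

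CREB words, TGACGTCA, were rare and close to the centre. They were in 1.93% of constant distal elements (1.64 to 2.27), in 0.932% (0.757 to 1.15) of the distal elements not called in diplonema, in 3.25% of promoter elements and in 0.101% along the autosomes. Their ratio of the share per bin within 50 bp of the centre to that beyond 400 bp was 15.4. It was 10.8 at the distal elements not called in diplonema and 26.7 at promoter elements. ETS words (CCGGAAG), NRF1 words (GCATGCGC) and GC boxes (GGGGCGG), all common at CpG-rich promoters, were in 3.68%, 1.60% and 4.72% of constant distal elements, in 1.94%, 0.688% and 3.47% of distal elements not called in diplonema, in 12.1%, 3.99% and 29.6% of promoter elements, and in 0.539%, 0.210% and 0.733% along the autosomes. The ratios of the constant distal share to the autosomal share were 6.84, 7.62 and 6.45 for these words. They were above the 4.69 of RFX words and below the 19.1 of CREB words. The ratios were not corrected for GC content, which had a median of 48.3% in constant distal elements and 41.8% along the autosomes. At pachynema scores of 0.8 to 1.0, ETS words were in 3.92% (3.11 to 4.94) of constant distal elements. In the elements not called in diplonema the share at those scores was 2.97% (2.04 to 4.32), with an overlapping interval. At scores of 1.0 to 1.2 the ETS shares were 4.53% (3.70 to 5.54) and 1.04% (0.354 to 3.01, 3 of 289 elements), with intervals apart. In the other score ranges the ETS intervals overlapped. The TATA word TATAAA and the GATA word AGATAA were in 10.6% and 9.62%, below the 19.3% and 13.4% of the windows along the autosomes and next to the 10.7% and 9.98% of distal elements not called in diplonema. The AP1 word TGANTCA was at 7.91%, next to 7.93% in the distal elements not called in diplonema. A word is a match of letters, and binding was not measured.

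By the ratio of the shares, the remaining words searched differed less from the windows along the autosomes than RFX words did. The short MYB core CNGTTG, part of which GGCNGTT also holds, was in 37.9% of constant distal elements (36.8 to 39.0), 31.4% (30.5 to 32.4) of distal elements not called in diplonema and 22.4% along the autosomes. The NFY word AGCCAAT was in 4.70% of constant distal elements against 2.41% along the autosomes, the E-box CACGTG in 4.31% against 1.99%, the E-box CAGCTG in 9.71% against 7.49%, and the partial CTCF word CCANNAGGG in 3.29% against 2.32%. The YY1 word AAGATGGC was in 1.68% against 1.79%, and the nuclear receptor word CAAGGTCA in 0.999% against 1.08%. In distal elements not called in diplonema the other 6 shares, from NFY on, were 3.92%, 3.49%, 9.72%, 3.14%, 1.92% and 1.25% in the same order.

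Intronic and intergenic elements had RFX and MYB shares with overlapping intervals, and exonic elements carried fewer RFX words. RFX words were in 17.2% (16.1 to 18.4) of 4031 intergenic, 16.5% (15.2 to 17.9) of 2925 intronic and 11.2% (8.28 to 14.9) of 349 exonic elements. MYB words were in 522 intergenic (12.9%, 11.9 to 14.0), 334 intronic (11.4%, 10.3 to 12.6) and 42 exonic elements, with intervals that overlapped. The exonic elements had a median GC content of 51.7% (50.2 to 53.2) and a median observed/expected CpG of 0.406 (0.364 to 0.468), above both other classes, and lay at a median of 5729 bp from a TSS. In the 826 CpG-rich elements, RFX words were in 7.63% (6.01 to 9.64), CREB words in 5.08% (3.78 to 6.80) and ETS words in 9.44% (7.63 to 11.6), against 17.8%, 1.53% and 2.95% in the others. Repeats, marked by lower case in the reference, covered at least 50% of the window in 15.9% of constant distal elements and in 2.32% of promoter elements.

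**Figure D4:**
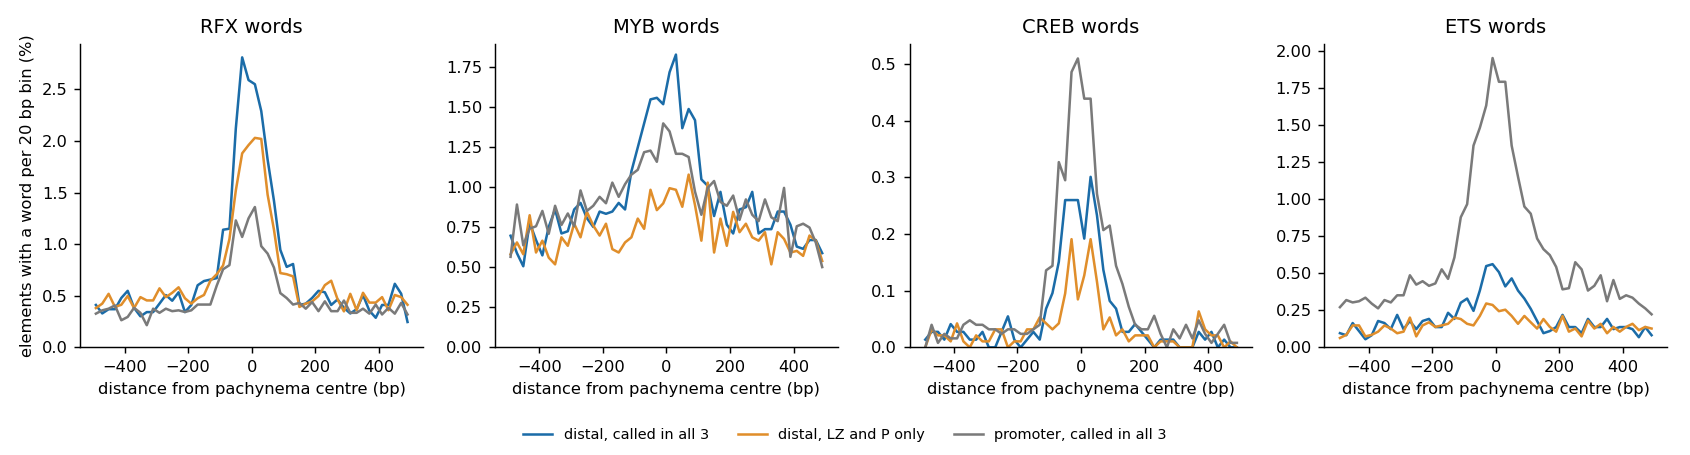
Share of elements (%) with an RFX, MYB, CREB or ETS word in each 20 bp bin, by distance from the pachynema centre (bp), for constant distal elements (blue), distal elements called in leptonema/zygonema (LZ) and pachynema (P) only (orange) and promoter elements called in all 3 substages (grey). The RFX curve of constant distal elements peaks at 2.81% and the MYB curve at 1.83%, and the panels have different scales.

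MYB and RFX words can share letters, since GGCNGTT and GTTGCCA overlap at GTT. Both were found in 284 constant distal elements (3.89%), and in 214 (2.93%) they occurred without overlap. High-ranking elements with a MYB word, 5 of the 6 with the highest ranks, on the strand of the word and with 8 bases to either side, are shown because in 3 of the 6 the MYB word runs on into GCC, the next letters of the RFX word.
chr2:170470776-170470798, minus strand: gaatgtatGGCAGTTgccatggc
chr8:12333333-12333355, minus strand: gcttaagtGGCTGTTagaatgta
chr5:83889614-83889636, minus strand: attatggtGGCTGTTgccttggc
chr10:118889343-118889365, minus strand: tgggttatGGCTGTTgccacttt
chr11:37746578-37746600, plus strand: catttcctGGCAGTTttgaaaag

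The first of these is the Pfdn4 site shown above, and the site on chromosome 10 lay 18722 bp from the GENCODE TSSs of Dyrk2, which encodes a protein kinase, with a RefSeq TSS of Dyrk2 inside it. The highest-ranking elements with an RFX word are aligned in the same way.
chr11:87998323-87998345, plus strand: gacgtcatGTTGCCAtggcttca
chr2:170470765-170470787, plus strand: gcacacctGTTGCCAtggcaact
chr2:38369058-38369080, minus strand: ccctccagGTTGCCAggcacaga
chr9:31004240-31004262, plus strand: gaacaaagGTTGCCAggagacta
chr9:6532022-6532044, minus strand: atcttgttGTTGCCAggtaactg
chr1:91650792-91650814, minus strand: tcctgcagGTTGCTAtggagtca

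The shares of MYB, RFX and ETS words differed with the change of score rank from leptonema/zygonema to pachynema among the constant distal elements. When the 7305 elements were put in 5 equal groups by the change of percentile from leptonema/zygonema to pachynema, MYB words were in 10.9% (9.39 to 12.6) of the group that fell most, with a median change of -19.4 points, and in 19.3% (17.4 to 21.4) of the group that rose most, with a median change of 23.8 points. RFX words went the other way, from 19.5% (17.6 to 21.6) to 8.15% (6.85 to 9.66). ETS words went from 2.05% to 9.38%, with intervals that did not overlap. CREB words were in 1.64% (1.11 to 2.43) and 1.51% (0.997 to 2.27) of these groups, with intervals that overlapped. The 3 groups in the middle had MYB shares of 10.7%, 10.1% and 10.4%, so the MYB difference was in the group that rose most. MYB words not overlapping an RFX word were in 9.38% and 18.9% of the lowest and highest group. All windows were centred on the best pachynema peak, and the group shares were not recomputed around leptonema/zygonema centres. A large rise was open only to elements not already near the top of the leptonema/zygonema list.

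The group that rose most was also richer in CpG, with a median observed/expected ratio of 0.391 (0.369 to 0.410) against 0.187 (0.176 to 0.202) in the group that fell most. Without windows of a ratio of 0.6 or more, MYB words were in 11.3% (9.69 to 13.1) and 21.8% (19.4 to 24.3) of these groups, and RFX words in 271 of 1358 and 105 of 1126. From pachynema to diplonema the MYB share was 9.92% (8.50 to 11.6) in the group that fell most, with a median change of -55.0 points, and 17.5% (15.7 to 19.6) in the group at the other end, with a median change of 4.52 points. In the lists of equal length the median changes of these groups were -44.2 and 18.7 points. RFX words were in 18.1% and 14.7% of the same groups, and ETS words in 3.42% and 4.65%, with intervals that overlapped in both cases. In the lists of equal length, 129 of the 1177 elements that fell most from leptonema/zygonema to pachynema held a MYB word, against 187 (15.9%, 13.9 to 18.1) of the 1177 that rose most. RFX words were in 247 and 137 of these groups and ETS words in 1.61% and 7.39%. From pachynema to diplonema the MYB shares were then 9.18% and 15.7%, with intervals that did not overlap.

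**Figure D5:**
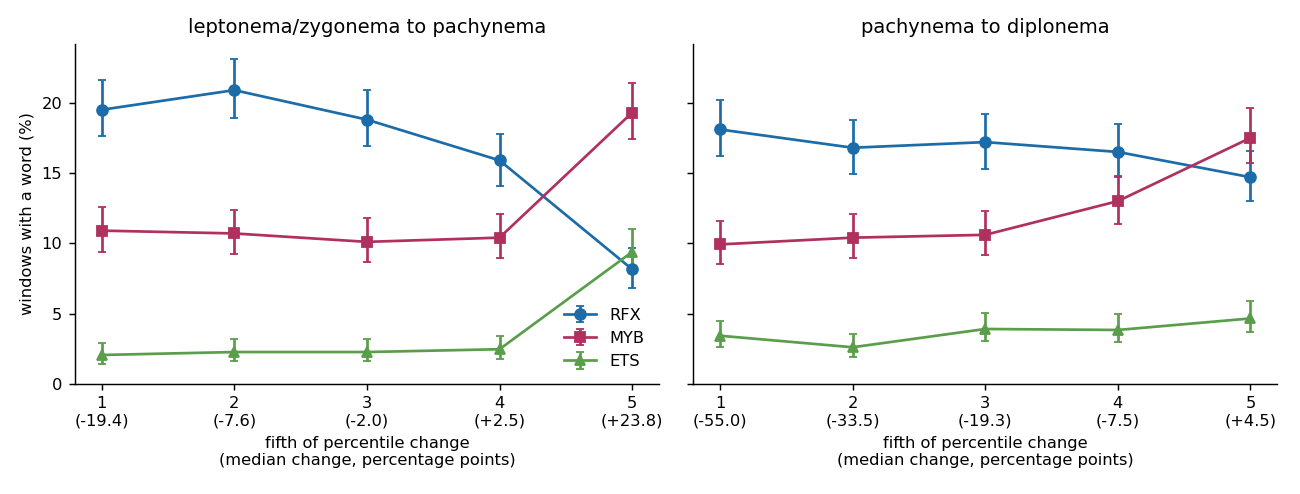
Share of constant distal elements (%) with an RFX, MYB or ETS word in 5 equal groups by change of score percentile, from leptonema/zygonema to pachynema (left) and from pachynema to diplonema (right), with 95% Wilson intervals; 1461 elements per group. On the left MYB reaches 19.3% and RFX 8.15% in the group that rose most.

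Without any word list, hexamers present in at least 5% of constant distal elements were ranked by their share over that in windows 2000 bp away. Of 1416 such hexamers, the highest were CGCCCC, in 7.86% against 1.67%, and CCGCCC, in 9.14% against 2.18%, both of the GC box. The ETS letters CCGGAA followed, in 6.60% against 1.59%. ACGTCA of the CREB word was in 6.19% against 1.79%. GGCAAC of the RFX word was in 15.9% against 5.58%. GC content was 43.3% at the median of the distant windows, and the ranking was not corrected for it.

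The nearest protein-coding TSS had shares of calls close to those in the distal elements not called in diplonema. For 51.6% (50.4 to 52.7) of constant distal elements the nearest protein-coding TSS had no peak within 1000 bp in any list, and for 33.6% (32.5 to 34.7) it had a peak in all 3. Over all 90262 autosomal protein-coding TSSs these shares were 48.5% and 39.1%. In distal elements not called in diplonema they were 51.0% and 34.8%.

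Constant distal elements were counted in and around genes of meiosis and of other testis cells. Of 20780 autosomal protein-coding genes, 9.83% held an element in the gene body and 34.0% had one within 50 kb, at a median length of 17.6 kb. Of 133 autosomal genes in 12 lists of meiotic, germ-cell and somatic genes, 12 (9.02%) held an element in the body and 42 (31.6%) had one within 50 kb, at a median length of 30.2 kb. In the 5 lists of the synaptonemal complex, double-strand breaks, repair, crossovers and cohesin, 3 of 51 genes (5.88%) held an element and 14 (27.5%) had one within 50 kb. None of the 10 genes for double-strand break formation and none of the 14 genes for strand exchange and repair held an element, and 1 gene of each list had an element within 50 kb. Of the other lists of this kind, 5 of 11 synaptonemal complex genes, 4 of 10 crossover genes and 3 of 6 meiotic cohesin genes had an element within 50 kb. With lists of this size the counts differ from the share over all genes by a few genes only.

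The hosts among these genes were of several roles. Sycp1, which encodes the transverse filament of the synaptonemal complex, held an element in an intron at chr3:102865561-102866370, 14410 bp from the nearest TSS, with scores of 1.235, 1.116 and 1.041 and percentiles of 93.8, 89.5 and 91.6. Shoc1 (AI481877 in the annotation), a crossover factor of the ZMM group, held one in an intron at chr4:59117141-59118390, with percentiles of 92.2, 94.5 and 93.8. These percentiles refer to lists of unequal length. Smc1b, a cohesin subunit of meiosis, held an element whose percentile was 80.1, 87.7 and 59.6.

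In the piRNA pathway 2 of 17 genes were hosts. Tdrd7, a Tudor-domain protein of germ granules, held 2 elements, and the better had percentiles of 84.7, 84.9 and 27.6. Piwil1 (MIWI), the Argonaute that binds pachytene piRNAs, held an element with an RFX word and percentiles of 82.2, 74.6 and 24.9. Among 21 transcription regulators the hosts were Tcfl5, a basic helix-loop-helix factor of spermatocytes, with percentiles of 85.7, 88.3 and 86.0, Sox30, an activator of late meiotic genes, and Brdt, the testis bromodomain protein, whose element lay 1469 bp from a TSS with percentiles of 84.7, 82.5 and 50.1. Of 15 spermatid and acrosome genes, Catsper1, a sperm calcium channel, and Izumo1, the sperm protein of egg fusion, were hosts, with pachynema scores of 0.799 and 0.432.

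Outside the spermatocyte programme, Gfra1, the GDNF receptor of undifferentiated spermatogonia, held 3 elements although no peak lay within 1000 bp of its TSSs in any list. Its strongest element, at chr19:58360281-58361290, lay 93176 bp from the nearest TSS, with scores of 1.012, 1.086 and 0.956. Gfra1 was the only host among 8 spermatogonial genes, of which 5 had an element within 50 kb. Gata4, a Sertoli cell factor, was the only host among 6 Sertoli cell genes, with a low element in an intron at scores of 0.695, 0.375 and 0.344, and 3 of the 6 had an element within 50 kb. None of 8 Leydig cell genes and none of 7 blood and vessel genes was a host, and 2 and 1 of them had an element within 50 kb.

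Promoter calls at marker genes were checked to see which cells the lists reflect. The 4 spermatocyte markers Sycp1, Sycp3, Dmc1 and Mybl1 had a peak within 1000 bp of a TSS in every list. None of the blood and vessel markers Ptprc, Csf1r, Pecam1 and Cdh5 had one in any list, and of 5 Leydig cell markers Cyp11a1 alone had one, in pachynema, with a score of 0.414. Of 5 spermatid markers 4 had a peak in every list. Prm1 and Prm2 were among these and had identical scores (0.676, 0.561 and 0.747), so they may share the same calls. Of 4 spermatogonial markers 3, 3 and 2 had a peak in the order of the substages. Of 5 Sertoli cell markers 2, 4 and 3 had one, with Sox9 and Gata4 called in every list. The paper reports that elongated spermatids made up most of the contaminating cells in each fraction. The part of spermatids, spermatogonia and Sertoli cells in the constant distal elements was not tested.

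Elements seldom stood in chains. When elements with gaps of up to 12.5 kb were put together, 5991 (82.0%) stood alone, and 184 (2.52%) were in chains of 3 or more. The longest chains had 4 elements, and there were 10 of these. A pair of them lay on chromosome 10 around the long noncoding gene 1110002J07Rik, at chr10:66907931-66931540 with median scores of 1.05, 0.960 and 0.527, and at chr10:66958341-66972070 with 0.856, 0.597 and 0.538, the latter within 50 kb of Reep3. Another lay within 50 kb of Rreb1, a zinc-finger factor of RAS signalling, at chr13:37728391-37736440. By chromosome, density ran from 2.36 elements per Mb on chromosome 7 to 3.52 on chromosome 10, and the constant share of distal elements ran from 16.4% on chromosome 11 to 21.6% on chromosome 14.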

How the data were processed

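The 12 leChRO-seq libraries were processed by the authors: duplicates were dropped by molecular identifier, adapters trimmed with cutadapt, reads mapped with BWA to mm10, and dREG run with default settings on the merged libraries of each substage. The dREG version is not given in the sources used here, and the labels (single-end) and methods (paired-end) differ on the reads. Each deposited peak carries a dREG score, with no fixed range, and a p-value of at most 0.05, for which no adjustment is stated.

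Here, calls were joined where they overlapped or touched and placed with GENCODE M21 and RefSeq GRCm38.p6. A word counted once per window of 100 bp to either side of the centre, on either strand. Shares have 95% Wilson intervals and medians 95% order-statistic intervals; neighbouring elements are not independent. Of 140 listed gene names, 1 was not matched. Sites were named by rule: the 3 highest per class, the 2 largest rises and falls per step, up to 4 hosts per gene list, the 3 longest chains (ties by chromosome), those next to the 1000 bp limit, and the highest with each word. Of the sites so named, 3 are not reported here. Elements, lists and rules were chosen with earlier results of these data known. The steps were tested on simulated data. Statistics used scipy 1.17.1, pandas 2.3.3 and numpy 2.4.6 in Python 3.11.15, and figures matplotlib 3.10.9. Read counts were not analysed here.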

Additional observations from a re-analysis of the deposited data

How the results depend on the processing

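No paired analysis was possible because peaks were called on merged libraries, so no replicate number reaches them and no replicate could be left out. The 5 main values were recomputed under 7 to 10 of 11 other settings each, and 32 of the 41 values so obtained stayed within the interval of the value or, for the number of elements, within 1.5 times. The number of elements was 7305 and became 3789 when only peaks with a dREG score of at least 0.5 were used; it ran from 5644 to 9269 under the others. The intergenic share was 57.2% with that score minimum, 52.8% with TSSs of protein-coding genes only, 59.2% with a TSS distance of at least 5000 bp and 62.7% when only protein-coding gene bodies counted as genic. The median GC content was 47.4% in windows of 200 bp to either side. The share with a MYB word was 19.6% in those windows, 10.3% around the midpoint of the joined element and 37.9% for the shorter word CNGTTG. The median distance between leptonema/zygonema and pachynema centres was 30.0 or 40.0 bp in all 7 alternatives. Read totals are not part of the lists and were not used here, so a missing call in diplonema cannot be told apart from a call below detection.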
